A study of Arabidopsis thaliana with 28 samples.

Results

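The core genes of the cell division machinery were followed across the stem cells of the Arabidopsis root tip. The set holds 46 of the 33201 genes in the deposited table: 10 A-type cyclins, 9 B-type cyclins, 9 D-type cyclins, 5 cyclin-dependent kinases (CDKA;1 and the CDKB genes), the 7 KIP-RELATED PROTEIN genes (KRP1 to KRP7), SIAMESE (SIM), SIAMESE-RELATED 1 (SMR1), WEE1 and the 3 CCS52 genes. Members were listed by gene identity, with earlier results of these data known. CYCD6;1, whose promoter marks the cortex endodermis initials, was left out. CYCA3;3 was listed above 0 in 2 of 28 samples, at most at 0.205 FPKM, and was not tested, so that 45 members were.

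RNA-Seq was done on cells sorted by fluorescence from root tips of 5-day-old Col-0 seedlings after digestion of the cell walls, and every population shared this background and preparation. Of the GFP-positive populations, 3 had 4 samples: AGL42:GFP cells stood for the whole stem cell niche (SCN), CVP2:NLS-VENUS cells for protophloem (Protophlo) and TMO5:3xGFP cells for xylem initials (Xyl). The other 4 had 3 samples: WOX5:GFP cells for the quiescent center (QC), CYCD6:GFP cells for cortex endodermis initials (CEI), J2341 enhancer trap cells for columella stem cells (CSCs), and cells with the protein fusion FEZ:FEZ-GFP for initials of epidermis and lateral root cap (Epi/LRC). The reference was the GFP-negative fraction of the AGL42:GFP line (non-stem cells, NSCs, n = 4). Each population is the set of cells in which 1 reporter is active, and each library holds a pool of sorted cells. By its label the niche takes in the other stem cell populations. The design describes the replicates as biological. Values are FPKM (fragments per kilobase of transcript and per mapped depth), which are scaled for gene length and can be compared between genes.

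The reporter genes were checked first. WOX5 had a mean of 179 FPKM in QC against 3.16 in NSCs, FEZ 147 in Epi/LRC against 1.32, and TMO5 1081 in Xyl against 10.5. FEZ was also at 80.8 in CSCs, so it did not single out Epi/LRC. Nor did SMB, the other Epi/LRC gene checked, at 85.5 in Epi/LRC and 57.5 in CSCs. FEZ reads in Epi/LRC could also come from the FEZ:FEZ-GFP fusion, which was not tested. PLT1, a gene of the stem cell niche and columella stem cells, was at 222 in CSCs, 197 in QC and 76.2 in SCN against 1.48, and so did not single out CSCs. WIP4, the other CSCs gene checked, was at 57.0 in CSCs and at 102 in QC. The name columella stem cells below follows the label. CYCD6;1 was at 8.68 in CEI and at 15.7 in CSCs. SCR, the other CEI gene checked, had its highest mean in CEI, at 49.9 against 33.8 in QC and 6.26 in NSCs. AGL42, the SCN reporter gene, was at 14.5 in both SCN and QC against 1.75 in NSCs, and so did not single out SCN. In the Protophlo libraries the reporter gene CVP2 went against the label, at a mean of 1.79 FPKM against 19.0 in Xyl. The phloem gene BAM3 had its highest mean there (4.26 against 3.56 in NSCs), carried by replicate 4 at 16.3, and APL (2.62) and PEAR1 (0.0728) were highest there of the 7 sorted populations but below NSCs (8.51 and 1.16). The root hair gene EXPA7 lay between 237.5 and 552. These libraries are therefore written below as the Protophlo libraries and not as phloem cells. The summed FPKM of 6 genes of differentiated cells (CASP1, COBL9, EXPA7, GL2, BRN1 and VND7) ran from 697 to 1086 in NSCs, from 343 to 3698 in Protophlo, from 66.4 to 736 in SCN, from 182 to 1182 in CEI, from 177 to 377 in QC, from 5.79 to 321 in Epi/LRC, from 18.9 to 320 in Xyl and from 0.841 to 55.7 in CSCs. CSCs replicate 2 also held 82.0 FPKM of TMO5, and Epi/LRC replicate 2 held 16.4. Mean levels in CSCs were second only to Xyl for the xylem genes PHB (28.5 FPKM, against 3.83 in NSCs) and ATHB8 (31.9, against 5.73). The same held for CVP2 (7.43, against 1.10). The part of differentiated or other cells in the results was not tested.

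Cyclins bind cyclin-dependent kinases and set when and on what they act. In plants D-type cyclins with CDKA act at the entry into the cycle, A-type cyclins act from DNA replication onward, and B-type cyclins with B-type CDKs act at mitosis. KRP proteins and the SIAMESE family inhibit the kinase complexes, the WEE1 kinase can hold CDKs inactive by phosphorylation, and the CCS52 proteins activate the anaphase-promoting complex, which marks mitotic cyclins for destruction. In the root tip, cells of the quiescent center divide rarely, the surrounding initials divide more, and cells leaving the meristem often copy their DNA without dividing.

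Genes of the mitotic phase often carry the mitosis-specific activator element, which MYB3R factors bind and whose core reads AACGG. The 250 bases before the annotated start of each gene (TAIR10.1 reference, RefSeq annotation) were searched for AACGG on both strands, so that the reverse form CCGTT also counted. The core was present before 6 of the 9 B-type cyclin genes (66.7%), always in 2 or more copies, against 17 of all 46 members (37.0%) and 5645 of 27443 protein-coding genes (20.6%). Across the protein-coding genes 994 (3.62%) had 2 or more copies. A 90-base stretch is shown for each of these 6 genes, for CYCB1;4, which had no copy in 250 bases, and for the inhibitor gene KRP1, which had 6 copies. Each stretch was placed to hold the most copies of its 250 bases, and for CYCB1;4 it ends at the gene start. These 8 genes were chosen after motifs and levels were seen. Sequences read 5′ to 3′ along the strand of the gene, with the core or its reverse in capitals.
CYCB1;1, chr4:17624309-17624398, minus strand: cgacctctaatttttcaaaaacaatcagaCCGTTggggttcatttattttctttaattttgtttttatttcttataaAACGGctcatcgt
CYCB1;2, chr5:1861704-1861793, minus strand: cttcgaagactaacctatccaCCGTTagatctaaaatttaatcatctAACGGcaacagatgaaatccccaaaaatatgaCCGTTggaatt
CYCB1;3, chr3:3627274-3627363, minus strand: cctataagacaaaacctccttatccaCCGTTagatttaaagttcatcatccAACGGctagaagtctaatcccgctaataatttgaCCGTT
CYCB2;1, chr2:7663917-7664006, plus strand: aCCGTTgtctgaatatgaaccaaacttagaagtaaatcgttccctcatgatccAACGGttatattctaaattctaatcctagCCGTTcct
CYCB2;2, chr4:16901418-16901507, plus strand: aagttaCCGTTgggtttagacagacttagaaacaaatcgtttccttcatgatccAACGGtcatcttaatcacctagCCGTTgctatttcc
CYCB2;3, chr1:7137860-7137949, minus strand: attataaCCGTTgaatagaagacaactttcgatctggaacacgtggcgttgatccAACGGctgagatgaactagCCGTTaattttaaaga
CYCB1;4, chr2:11401028-11401117, plus strand: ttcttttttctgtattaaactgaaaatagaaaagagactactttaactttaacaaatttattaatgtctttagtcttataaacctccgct
KRP1, chr2:9978131-9978220, minus strand: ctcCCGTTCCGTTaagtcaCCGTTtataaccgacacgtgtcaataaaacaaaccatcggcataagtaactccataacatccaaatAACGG

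In 5 of the 6 B-type stretches the core occurred 3 times, with the middle copy on the strand of the gene and the outer copies reversed, and in CYCB1;1 it occurred once in each form. In the full 250 bases CYCB1;1 had 3 copies and CYCB1;2 had 4. CYCB2;4 and CYCB3;1, like CYCB1;4, had no copy in 250 bases. The core also preceded 4 of 10 A-type cyclin genes, 4 of 7 KRP genes, 1 of 9 D-type cyclin genes and 1 of 5 CDK genes. The S-phase motifs TTTCCCGC, TTTGGCGC, TTTCGCGC and TTTGCCGC, forms of the site of E2F factors, were found on either strand before 2 members (4.35%), CYCA1;2 and CYCD3;3, against 1.41% of the protein-coding genes. A match is only a string of letters in this window and not a shown binding site.

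**Figure D1:**
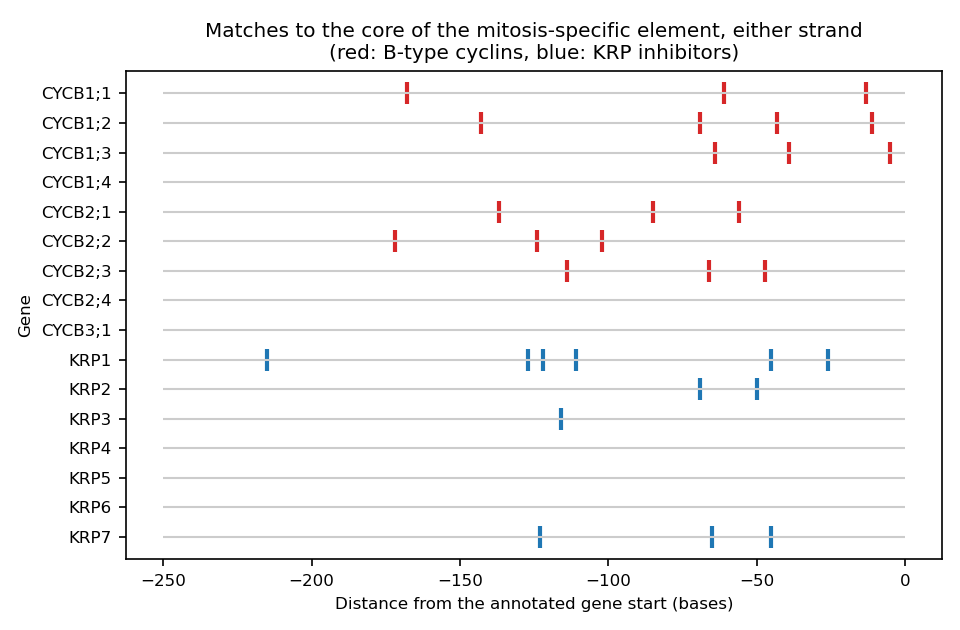
Positions of matches to the mitosis-specific activator core before the 9 B-type cyclin genes and the 7 KRP genes, as distance in bases from the annotated gene start, on either strand (B-type genes in red, KRP genes in blue). Matches were found before 6 of the 9 B-type genes and 4 of the 7 KRP genes, with the matched genes holding from 1 to 6 of them.

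Each population was compared with NSCs in a limma fit on log2(FPKM + 1), with Benjamini-Hochberg adjustment over the 22694 genes tested. A gene was called at an adjusted p under 0.06 and a fold above 2, the criteria of the study. On this scale the changes of genes with low FPKM are understated, and a gene listed at 0 in every library of a population is given no fold. The 7 comparisons share the 4 NSC libraries and, for each gene, 1 estimate of the spread over all 8 populations. A p-value therefore does not measure the spread of the compared groups alone.

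Most members were higher in the columella stem cells and in the xylem initials than in NSCs. In CSCs 27 of the 45 tested members were higher (against 22.6% of all genes tested) and 3 were lower (against 18.3%). In Xyl 26 were higher (57.8%, against 20.0%) and 4 were lower (against 23.5%). The median log2 fold change of the members was 2.12 in CSCs and 1.90 in Xyl, beside 0.08 and -0.20 over all genes tested. Without NSCs replicate 4, 20 members were called higher in CSCs and 23 in Xyl.

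In Epi/LRC 15 members were higher (33.3%, against 12.5% of all genes) and 2 were lower (against 16.6%), with a median of 1.09 beside -0.05. Without Epi/LRC replicate 2, 8 were called higher. In QC 7 members were higher (15.6%, against 9.31%) and 1 was lower (against 9.49%), with a median of 1.01 beside 0.12, and without NSCs replicate 4 only 3 were called higher. Leaving out other samples gave up to 9, and a fit of QC with NSCs alone gave 18, without a count over all genes. In CEI 6 members were higher (13.3%, against 5.37%) and 1 was lower (against 5.04%), with a median of 0.95 beside 0.02. The CEI count of members moved with single libraries, at 0 without CEI replicate 1 or replicate 3 and at 11 without CEI replicate 2. How far all genes moved in these fits was not counted. At an unadjusted p under 0.05, 14 members were higher and 2 lower in CEI (against 12.0% and 11.6% of all genes), and 14 were higher and 3 lower in QC (against 17.0% and 14.8%).

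In the SCN, 3 members were higher (6.67%, near the 5.52% of all genes) and 2 were lower (4.44%, against 8.89%), with a median of 0.67 beside 0.01. The 3 calls became 0 without SCN replicate 4 or NSCs replicate 4 and 7 without SCN replicate 1. In the Protophlo libraries 0 members were higher (against 3.51%) and 6 were lower (13.3%, against 10.5%), with a median of -0.39 beside -0.23. At an unadjusted p under 0.05, 3 members were higher there (against 8.28%) and 9 were lower (against 19.0%). Without Protophlo replicate 2 or NSCs replicate 2, 3 were called lower, and without Epi/LRC replicate 2, 2 were called higher.

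In all, 32 members were higher than in NSCs in at least 1 population (71.1%, against 33.7% of all genes), 9 were lower in at least 1 (20.0%, against 32.4%), 3 of these were both, and 7 were neither. All 9 B-type cyclins and all 5 CDKs were higher in at least 1 population, as were 8 of 9 tested A-type cyclins, but only 4 of 9 D-type cyclins, and 5 of 7 KRP genes were lower in at least 1. Scaling the libraries by median-of-ratios size factors moved the median of all genes from 0.08 to -0.22 in CSCs, from 0.12 to -0.10 in QC and from -0.20 to -0.31 in Xyl, and it ended 9 of the 30 calls in CSCs, 2 of 8 in QC and 2 of 30 in Xyl. Of the 103 member calls against NSCs, 55 were kept whichever sample was left out and under every other setting tried. These are called firm below: 25 of 30 in Xyl, 18 of 30 in CSCs, 6 of 17 in Epi/LRC, 3 of 8 in QC, 2 of 6 in Protophlo, 1 of 5 in SCN and 0 of 7 in CEI.

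**Figure D2:**
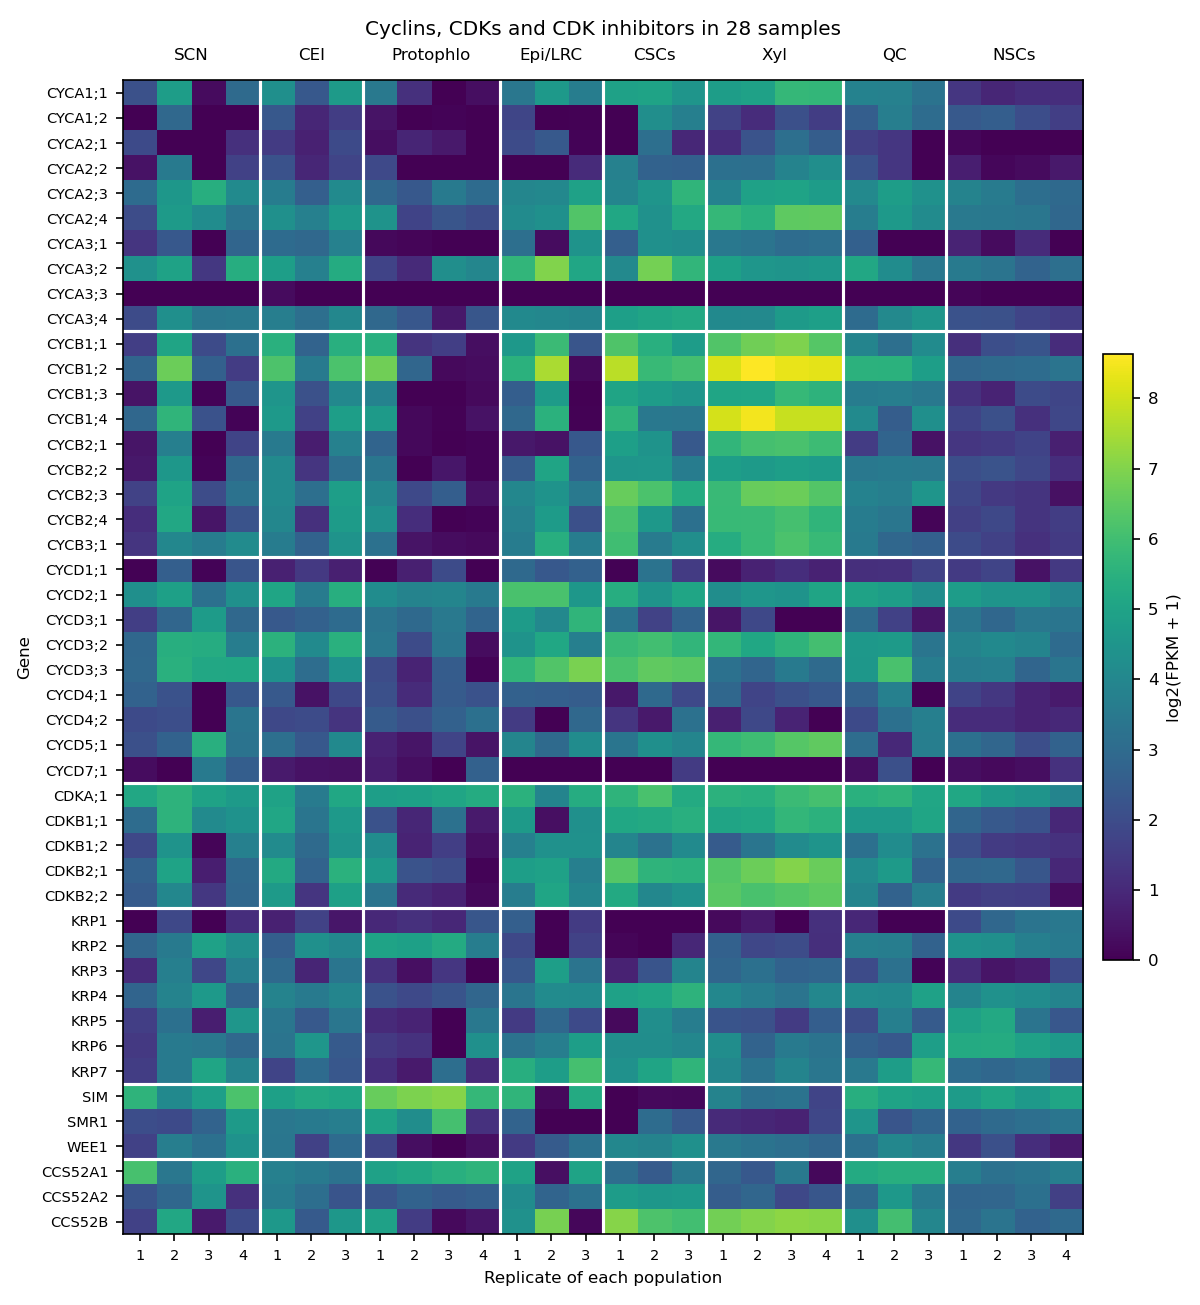
Log2(FPKM + 1) of the 46 members (rows, by class) in each of the 28 samples (columns, by population). The CYCB1;2 and CYCB1;4 rows are brightest in the 4 Xyl samples, and the B-type cyclin rows are dark in NSCs and low in most rows of Protophlo replicates 2 to 4.

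The B-type cyclins, which drive entry into and passage through mitosis, had the largest median difference of any class in Xyl. All 9 were higher in Xyl and 8 of 9 in CSCs (against 20.0% and 22.6% of all genes). The median log2 fold changes were 4.63 and 3.05. All 9 calls in Xyl were firm. In the other populations 3 were higher in Epi/LRC, 2 in CEI and 1 in QC (against 12.5%, 5.37% and 9.31%). None passed in SCN or Protophlo, where 2 and 0 were higher at an unadjusted p under 0.05 in limma (against 12.2% and 8.28% of all genes). The summed FPKM of the 9 genes ran from 21.2 to 26.1 in NSCs, from 894 to 1195 in Xyl, from 205 to 649 in CSCs and from 111 to 135 in QC. The 4 Xyl samples thus lay above all 24 others, and all QC samples lay above all NSC samples. The spread inside the remaining populations was wide: from 1.63 to 244 in Protophlo, from 20.6 to 324 in SCN, from 39.1 to 432 in Epi/LRC and from 38.8 to 252 in CEI.

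CYCB1;1 (AT4G37490, chr4:17621886-17624308), whose reporters are used to mark cells at the G2 to M transition, was at 77.2, 109, 122 and 81.3 FPKM in Xyl, at 74.6, 43.0 and 26.3 in CSCs, and at 1.23, 3.20, 3.76 and 1.16 in NSCs. The Xyl and CSCs values lay above all NSC values. In limma the log2 fold change was 4.95 ± 0.88 (SE) in Xyl and 3.84 ± 0.96 in CSCs (limma, adjusted p = 8.55e-05 and 0.00252), both firm. In QC the level was 14.0, 7.99 and 16.8, higher than in every NSC sample, without passing the test. In Epi/LRC and CEI it passed at adjusted p = 0.0423 and 0.0539 (limma), but these calls were lost in several fits, with an adjusted p of up to 0.252 and 0.299.

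CYCB1;4 (AT2G26760, chr2:11401118-11403433), a mitotic cyclin of the same subgroup, had its high level in the xylem initials. It was at 272, 356, 239 and 237 FPKM in Xyl, at 48.0, 9.92 and 9.75 in CSCs and at 2.36, 3.35, 1.31 and 2.57 in NSCs. Its lowest Xyl value was above the highest value of any other sample. The log2 fold change against NSCs was 6.36 ± 1.09 in Xyl (limma, adjusted p = 5.44e-05), the largest of any member, and Xyl was the only population where it passed. It was also the member with the largest difference between Xyl and the mean of the other 5 types, at 4.95 ± 0.86 (adjusted p = 0.000178).

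CYCB2;1 was at 50.1, 67.0, 70.6 and 60.0 FPKM in Xyl and at 1.58, 1.75, 2.33 and 0.689 in NSCs, a log2 fold change of 4.63 ± 0.81 (limma, adjusted p = 6.77e-05). CYCB3;1, of the third B-type group, was at 39.8, 55.9, 72.4 and 55.5 in Xyl and at 2.91, 2.18, 1.31 and 1.78 in NSCs, a log2 fold change of 4.22 ± 0.66 (adjusted p = 2.08e-05). In both genes every Xyl sample lay above every NSC sample, and both calls were firm.

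CYCB2;3 was spread over more populations than the other B-type cyclins. It was at 97.8, 72.0 and 38.8 FPKM in CSCs, at 57.2, 96.7, 101 and 78.9 in Xyl and at 2.55, 1.71, 1.48 and 0.310 in NSCs. The CSCs and Xyl values overlapped, and both populations lay wholly above NSCs. It was higher than in NSCs in Xyl (5.13 ± 0.64, limma adjusted p = 1.27e-06), CSCs (4.80 ± 0.69, adjusted p = 1.09e-05), QC (2.77 ± 0.69, adjusted p = 0.00724), Epi/LRC and CEI, and all but the CEI call were firm. The other 4 B-type cyclins had means of 26.5 to 328 FPKM in Xyl and 1.89 to 7.34 in NSCs.

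**Figure D3:**
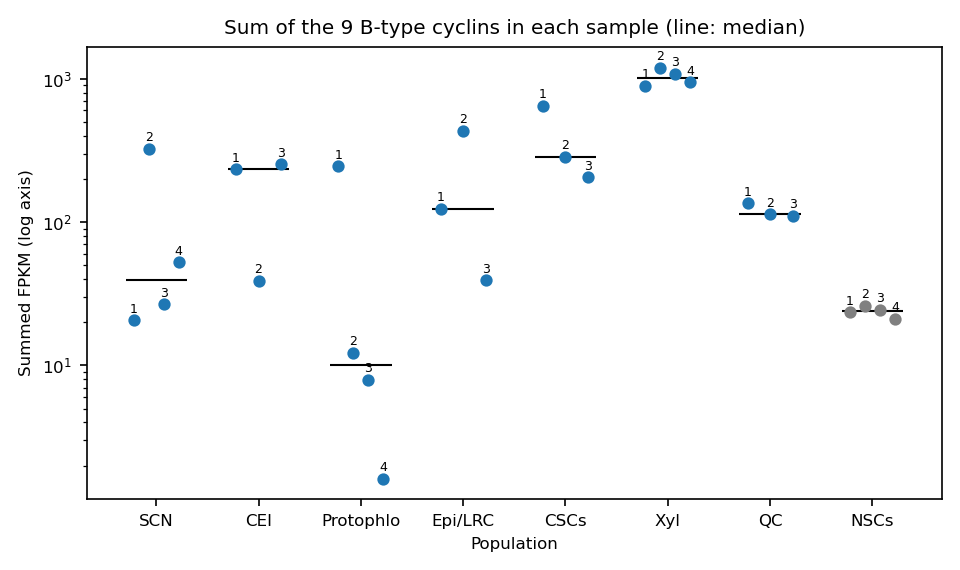
Summed FPKM of the 9 B-type cyclins in each sample, by population, on a logarithmic axis, with a line at the median of each population. The 4 Xyl samples (894 to 1195) lie above every other sample, and the NSC samples lie within 21.2 to 26.1.

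In the populations with a wide spread, 1 library stood apart in most B-type genes. Protophlo replicate 1 was above the other 3 Protophlo libraries in 9 of 9 B-type cyclins, SCN replicate 2 was above its group in 8 of 9, Epi/LRC replicate 2 was above its group in 8 of 9 (and lowest for CYCB2;1), and CEI replicate 2 was below its group in 9 of 9. When SCN replicate 2, CEI replicate 2 and Protophlo replicate 1 were left out together, a choice made after the values were seen, the members called higher than NSCs became 1 in SCN, 16 in CEI and 11 in QC, while the share of all genes called higher moved from 5.52% to 3.83%, from 5.37% to 10.9% and from 9.31% to 10.7%. The summed FPKM of the 6 genes of differentiated cells was 1182 in CEI replicate 2 against 182 and 309 in the other CEI libraries, with CASP1 at 999.8 against 123 and 10.1. In Epi/LRC replicate 2 this sum was 5.79 against 121 and 321, and in SCN replicate 2 and Protophlo replicate 1, at 134 and 685, it lay inside the range of the other libraries of the group. Their part in the B-type levels was not tested. Whether such a library held more dividing cells or more RNA of these genes per cell cannot be told apart in sorted pools.

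The A-type cyclins, which act in DNA replication and at the approach to mitosis, were also mostly higher in CSCs and Xyl. Of 9 tested, 7 were higher in CSCs, 7 in Xyl, 5 in Epi/LRC, 3 in CEI, 2 in QC and 1 in SCN. Over all genes the shares were 22.6%, 20.0%, 12.5%, 5.37%, 9.31% and 5.52%, in that order. CYCA1;1 was at 27.2, 29.5, 52.8 and 51.1 FPKM in Xyl, at 29.4, 31.3 and 21.7 in CSCs and at 1.57, 0.907, 1.20 and 1.18 in NSCs, with no overlap between NSCs and either population. Its log2 fold change was 4.16 ± 0.72 in Xyl and 3.68 ± 0.78 in CSCs (limma, adjusted p = 6.42e-05 and 0.000678), both firm. It also passed in Epi/LRC, QC and CEI (2.76, 2.49 and 2.66, adjusted p = 0.0102, 0.0287 and 0.0319), and each of these calls was lost in at least 1 fit (up to 0.0627, 0.0815 and 0.234).

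CYCA3;4, of the A3 group linked to the start of DNA replication, was called higher in 6 of the 7 populations, more than any other member. It was at 28.2, 32.3 and 36.3 FPKM in CSCs, at 16.0, 15.7, 25.2 and 27.97 in Xyl and at 3.48, 3.41, 2.44 and 1.87 in NSCs. The CSCs values lay above every other sample of the series, the highest Xyl sample at 27.97 included. In limma the log2 fold change was 3.15 ± 0.51 in CSCs, 2.53 ± 0.48 in Xyl and 2.09 in Epi/LRC (limma, adjusted p = 4.89e-05, 0.000147 and 0.00374), and these 3 were firm. It also passed in QC, CEI and SCN, where each call was lost in at least 1 fit, with an adjusted p of up to 0.0703, 0.213 and 0.185. The annotated CYCA3;4 overlaps a gene on the opposite strand by 46 bases, and the libraries did not keep the strand. Opposite-strand overlaps not repeated below are those of CYCA2;3 (48 bases), CYCD1;1 (144), CYCD3;2 (220) and SMR1 (375). CYCD3;1 and CCS52A2 overlap genes on the same strand, by 40 and 111 bases.

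CYCA2;4 and CYCA2;2, of the A2 group that acts with B-type CDKs, were highest in Xyl. CYCA2;4 was at 52.4, 43.8, 88.5 and 90.7 FPKM there and at 10.2, 9.89, 9.39 and 6.34 in NSCs, a log2 fold change of 2.76 ± 0.57 (limma, adjusted p = 0.000352). CYCA2;2 was at 8.04, 7.85, 13.4 and 18.4 in Xyl and at 0.666, 0.104, 0.194 and 0.505 in NSCs (3.18 ± 0.63, adjusted p = 0.000262). Neither gene overlapped between Xyl and NSCs, and both calls were firm.

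CYCA3;1 was at 5.07, 19.3 and 17.9 FPKM in CSCs, at 9.87, 9.06, 7.20 and 7.81 in Xyl and at 0.813, 0.185, 1.09 and 0 in NSCs. It passed in CSCs and Xyl (3.19 ± 0.77 and 2.69 ± 0.72, limma adjusted p = 0.00211 and 0.00347), and both were firm. It also passed in CEI and Epi/LRC (2.71 and 2.07, adjusted p = 0.0275 and 0.0463), and these calls were lost in several fits, with an adjusted p of up to 0.179 and 0.294. CYCA1;2, a gene best known from meiosis, was the only tested A-type cyclin called in no comparison with NSCs.

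Among the CDKs, CDKA;1 (AT3G48750), the kinase used through the whole cycle, had means from 23.6 FPKM in NSCs to 53.1 in Xyl, and it did not pass the test of any difference among the 6 types (limma F test, adjusted p = 0.089). Against NSCs it was higher by 1.18 ± 0.37 in Xyl and by 1.12 ± 0.40 in CSCs on the log2 scale (limma, adjusted p = 0.011 and 0.0277). Both calls were lost without NSCs replicate 4 and after scaling by median ratios, with an adjusted p of up to 0.0532 in Xyl, where the fold fell under 2, and 0.274 in CSCs.

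The CDKB genes, kinases of G2 and mitosis found in plants, had wider ranges of means. CDKB2;2 was at 84.0, 69.9, 78.6 and 89.8 FPKM in Xyl and at 1.77, 2.12, 2.07 and 0.230 in NSCs, a log2 fold change of 5.09 ± 0.69 (limma, adjusted p = 3.87e-06). The lowest Xyl value was above every sample outside Xyl. CDKB2;1 was at 79.0, 103, 129 and 101 in Xyl and at 6.27, 6.50, 3.91 and 0.958 in NSCs (4.42 ± 0.80, adjusted p = 0.0001). It was next highest in CSCs, at 80.5, 47.7 and 45.7, which overlapped the Xyl range. Both genes were also called in CSCs and Epi/LRC and CDKB2;2 in CEI and QC, and the calls of CDKB2;1 in Epi/LRC and of CDKB2;2 in CEI and QC were not firm.

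CDKB1;1 was at 34.5, 36.9 and 42.9 FPKM in CSCs, at 32.1, 34.0, 51.8 and 45.3 in Xyl, at 24.2, 24.5 and 32.8 in QC and at 6.12, 4.33, 3.48 and 0.931 in NSCs. It passed in CSCs, Xyl and QC (3.19 ± 0.77, 3.27 ± 0.71 and 2.71, limma adjusted p = 0.00198, 0.000629 and 0.0166), with the QC call lost without QC replicate 3 or NSCs replicate 4 (adjusted p up to 0.065). It also passed in SCN (2.21, adjusted p = 0.04), a call lost in several fits (up to 0.151). CDKB1;2 passed in Epi/LRC, CSCs and Xyl at log2 fold changes of 2.61, 2.22 and 2.06, and none of these 3 calls was firm. CDKB1;1, CDKB1;2, CDKB2;1 and CDKB2;2 each overlap a gene on the opposite strand, by 71, 281, 44 and 192 bases.

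**Figure D4:**
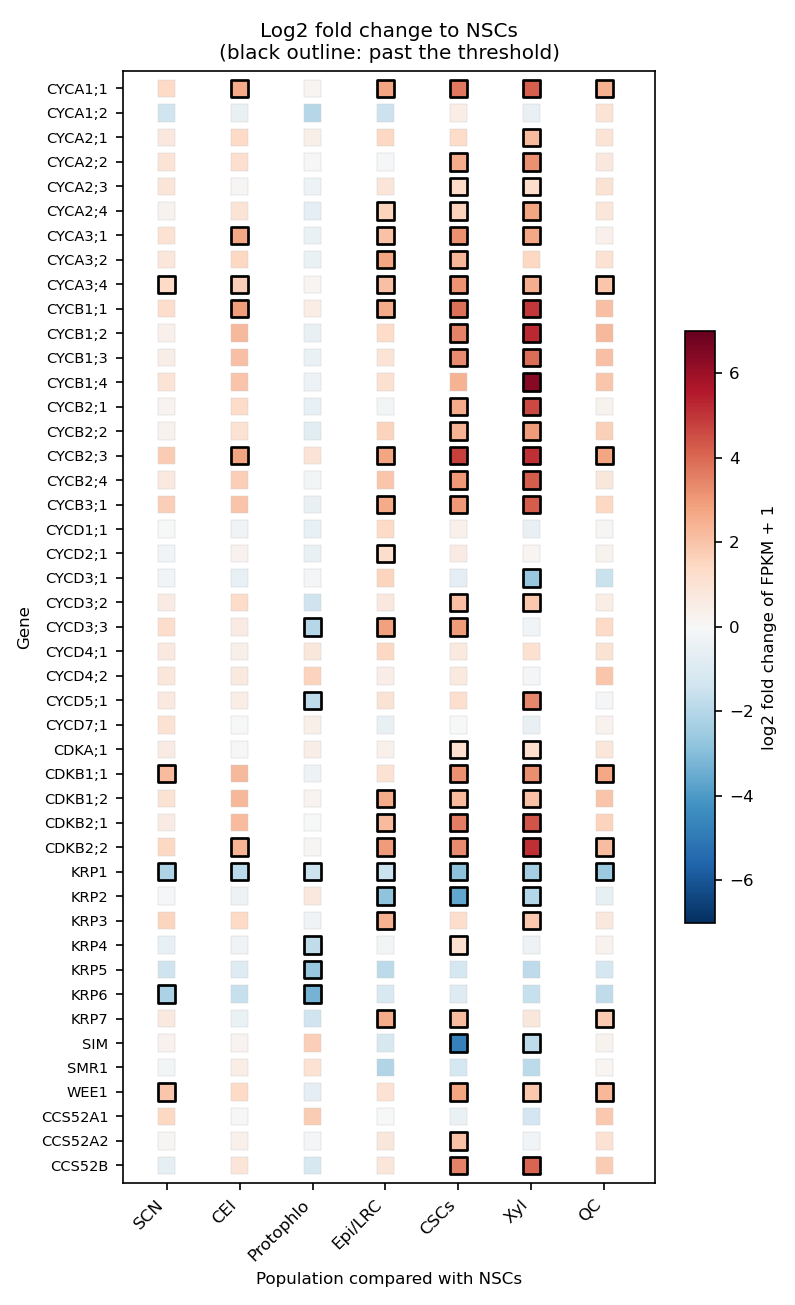
Log2 fold change against NSCs (color) of the 45 tested members (rows, by class) in the 7 stem cell populations (columns), with called genes marked. The B-type cyclins and CDKs are called along the CSCs and Xyl columns except CYCB1;4 in CSCs, and KRP1 is called lower in all 7.

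The D-type cyclins, which couple growth and developmental signals to cycle entry, did not move together. Of 9, 2 were higher in Epi/LRC, 2 in CSCs and 2 in Xyl (against 12.5%, 22.6% and 20.0% of all genes). In Xyl 1 was lower and in Protophlo 2 (against 23.5% and 10.5%). The counts of higher genes in CSCs and Xyl were thus near the share of all genes. CYCD3;3 was called higher in Epi/LRC and CSCs, CYCD3;2 in CSCs and Xyl, CYCD2;1 in Epi/LRC and CYCD5;1 in Xyl.

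CYCD3;1 (AT4G34160, chr4:16357421-16359565), a cytokinin-responsive cyclin, was lowest in the xylem initials. It was at 0.417, 2.66, 0 and 0 FPKM in Xyl, at 9.53, 6.30, 9.74 and 9.21 in NSCs and at 25.5, 15.3 and 48.6 in Epi/LRC. All Xyl values lay below all NSC values. On the log2 scale the fold change in Xyl was -2.67 ± 0.59 against NSCs (limma, adjusted p = 0.000746) and -2.39 against the other 5 types (adjusted p = 0.000619), and both were firm. In Epi/LRC it was above the other 5 types by 2.65 (adjusted p = 0.0042), which was also firm.

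CYCD3;3, of the same group, was highest in Epi/LRC and CSCs. It was at 50.2, 76.8 and 117 FPKM in Epi/LRC, at 69.4, 90.9 and 84.7 in CSCs, at 8.24, 6.09, 10.5 and 6.92 in Xyl, at 2.99, 0.819, 4.72 and 0.0580 in Protophlo, and at 11.6, 12.3, 6.07 and 9.17 in NSCs. The Epi/LRC and CSCs values overlapped each other and lay above all Xyl, Protophlo and NSC values. The log2 fold change against NSCs was 2.89 ± 0.61 in Epi/LRC and 2.97 ± 0.61 in CSCs (limma, adjusted p = 0.0012 and 0.000493), both firm, and -2.02 ± 0.57 in Protophlo (adjusted p = 0.0177, 0.0654 without Protophlo replicate 4). Among the 6 types it had the smallest F-test p of all D-type cyclins (adjusted p = 1.88e-06).

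CYCD5;1 (AT4G37630, chr4:17679168-17681264), a D-type cyclin less studied than the D3 group, was highest in Xyl. It was at 52.8, 60.5, 80.1 and 90.4 FPKM there and at 8.21, 6.18, 3.25 and 5.51 in NSCs, and every Xyl sample was above every other sample. The next samples were SCN replicate 3 at 42.2 and CSCs replicate 2 at 18.8. The log2 fold change in Xyl was 3.43 ± 0.60 against NSCs (limma, adjusted p = 7.1e-05) and 3.28 against the other 5 types (adjusted p = 2e-05), both firm. CYCD3;1 and CYCD5;1 thus changed in opposite directions in the same 4 samples.

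CYCD3;2 was higher in both CSCs and Xyl, at 56.9, 63.3 and 50.0 FPKM and at 51.5, 33.9, 48.3 and 65.6, against 13.7, 16.0, 13.8 and 7.18 in NSCs. Its log2 fold changes were 2.12 ± 0.64 and 1.91 ± 0.59 (limma, adjusted p = 0.0104 and 0.0108), both firm and without overlap with NSCs. CYCD2;1, a sucrose-responsive cyclin, passed only in Epi/LRC (1.21 ± 0.45, adjusted p = 0.0443, up to 0.202 in other fits). CYCD1;1, CYCD4;1, CYCD4;2 and CYCD7;1 were called in no comparison with NSCs, and the highest of their population means was 7.66 FPKM.

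**Figure D5:**
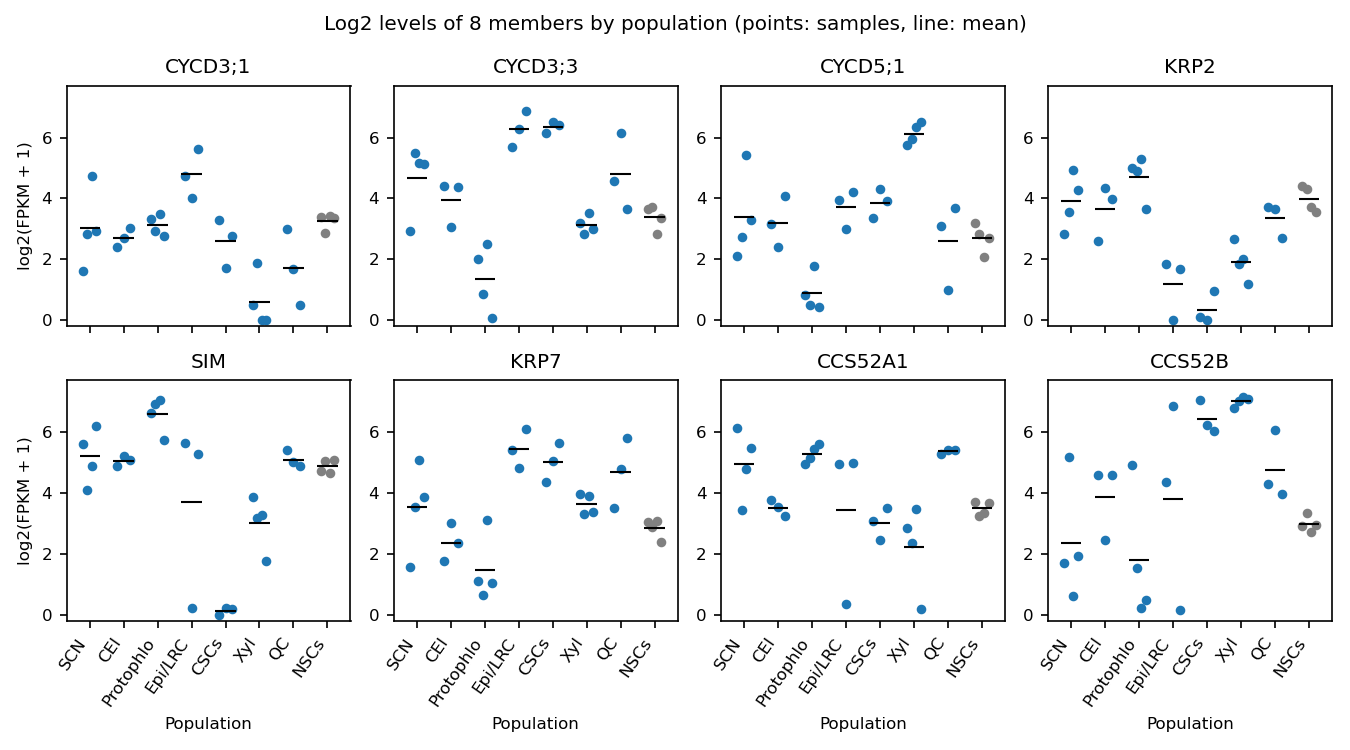
Log2(FPKM + 1) of 8 members in each sample by population, with a line at the population mean. CYCD3;1 is lowest in Xyl and CYCD5;1 highest there, SIM is near 0 in the 3 CSCs samples, and KRP7 is highest in Epi/LRC, CSCs and QC.

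The KRP genes, which encode inhibitors of CDKA and cyclin D complexes, went both ways. Of 7, 4 were lower in Protophlo (against 10.5% of all genes). In SCN, Epi/LRC, CSCs and Xyl 2 each were lower (against 8.89%, 16.6%, 18.3% and 23.5%). In CEI and QC 1 each was lower (against 5.04% and 9.49%). As higher, 2 each were called in Epi/LRC and CSCs (against 12.5% and 22.6%) and 1 each in Xyl and QC (against 20.0% and 9.31%). Counts of 1 or 2 among 7 genes are not read as a result about the class.

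KRP1 (AT2G23430, chr2:9976590-9978090) was the only member lower than in NSCs in all 7 populations, and it is described here because of that pattern. It was at 2.82, 6.30, 8.93 and 10.1 FPKM in NSCs, at 0, 2.62, 0 and 1.17 in SCN, at 0.161, 0.493, 0 and 1.31 in Xyl and at 0.929, 0 and 0 in QC, and it was listed at 0 in all 3 CSCs libraries. These values lay below the NSC range. The log2 fold change was -2.15 ± 0.52 in SCN, -2.40 ± 0.52 in Xyl and -2.58 ± 0.56 in QC (limma, adjusted p = 0.00691, 0.000615 and 0.00276), and the calls in these and in CSCs (adjusted p = 0.000293) were firm. In CEI, Protophlo and Epi/LRC the calls (adjusted p = 0.0334, 0.0513 and 0.0438) were lost in several fits, with an adjusted p of up to 0.267, 0.305 and 0.341. The 7 calls share the NSC libraries, and the level there was itself low.

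KRP2 (AT3G50630, chr3:18800306-18801595), an inhibitor tied to the switch from division to DNA endoreduplication, was at 20.15, 18.7, 12.3 and 10.7 FPKM in NSCs and at 31.0, 28.8, 38.1 and 11.7 in Protophlo. It was at 0.0734, 0 and 0.924 in CSCs, at 2.62, 0 and 2.22 in Epi/LRC and at 5.43, 2.58, 2.98 and 1.26 in Xyl. The last 3 populations lay wholly below NSCs, and the Protophlo values overlapped NSCs. The log2 fold change was -3.64 ± 0.58 in CSCs, -2.81 ± 0.58 in Epi/LRC and -2.07 ± 0.53 in Xyl (limma, adjusted p = 3.45e-05, 0.000924 and 0.00267), all firm. Against the other 5 types it was higher in Protophlo by 2.62 ± 0.42 (adjusted p = 3.03e-05) and lower in CSCs by 2.62 (adjusted p = 0.000377).

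KRP4 and KRP7 were highest in other places than KRP2. KRP4 was at 29.9, 32.5 and 46.9 FPKM in CSCs, at 13.9, 19.5, 17.3 and 14.0 in NSCs and at 3.55, 2.73, 3.72 and 6.19 in Protophlo, 3 ranges that did not overlap. Its log2 fold change was -1.80 ± 0.38 in Protophlo (limma, adjusted p = 0.00226), which was firm, and 1.11 ± 0.41 in CSCs (adjusted p = 0.032), which was lost without CSCs replicate 3, NSCs replicate 1 or NSCs replicate 4 and after scaling by median ratios (adjusted p up to 0.271). Above the other 5 types it stood by 1.58 in CSCs (adjusted p = 0.00171), a firm call. The annotated KRP4 overlaps a gene on the opposite strand by 926 bases, more than any other member.

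KRP7 was at 41.6, 27.0 and 67.3 FPKM in Epi/LRC, at 19.7, 32.2 and 49.5 in CSCs, at 10.3, 27.0 and 54.5 in QC and at 7.19, 6.38, 7.39 and 4.24 in NSCs. Each of these 3 populations lay above NSCs. It passed in Epi/LRC and CSCs (2.59 ± 0.66 and 2.18 ± 0.66, limma adjusted p = 0.00475 and 0.0101), both firm, and in QC at adjusted p = 0.0507, which was not firm.

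KRP6 was at 37.4, 38.4, 29.7 and 24.4 FPKM in NSCs and at 1.68, 1.37, 0 and 19.2 in Protophlo (-3.29 ± 0.70, limma adjusted p = 0.00235, firm). It was at 1.71, 10.7, 9.78 and 6.60 in SCN (-2.21 ± 0.70, adjusted p = 0.0352, up to 0.12 in other fits), again wholly below NSCs. KRP3 passed as higher in Epi/LRC and Xyl and KRP5 as lower in Protophlo, and none of these 3 calls was firm.

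SIM (AT5G04470, chr5:1266625-1267416), the founding member of the SIAMESE inhibitors and a promoter of endoreduplication in trichomes, was near 0 in the columella stem cells. It was at 0, 0.151 and 0.135 FPKM in CSCs, at 25.4, 32.3, 24.4 and 32.6 in NSCs, at 41.5, 31.4 and 28.4 in QC and at 97.3, 121, 133 and 52.6 in Protophlo. The 3 CSCs values lay below every other sample, and the next was Epi/LRC replicate 2 at 0.160, while the other Epi/LRC samples were at 48.6 and 38.2. The log2 fold change in CSCs was -4.75 ± 0.79 against NSCs and -4.57 ± 0.64 against the other 5 types (limma, adjusted p = 5.58e-05 and 2.17e-05), both firm. The annotated SIM overlaps a gene on the opposite strand by 338 bases.

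In Xyl SIM was at 13.5, 8.13, 8.77 and 2.42 FPKM, below all NSC samples, with a log2 fold change of -1.85 ± 0.73 (limma, adjusted p = 0.0405) that was lost without Xyl replicate 4 and in other fits (up to 0.149). In Protophlo all 4 samples were above all NSC samples, but the difference of 1.71 did not pass (adjusted p = 0.122). Against the other 5 types it passed at 3.18 ± 0.58 (adjusted p = 0.000103), and that call was firm. SMR1, also known as LOSS OF GIANT CELLS FROM ORGANS, was at 30.6, 17.7, 66.3 and 1.32 in Protophlo and passed there against the other types (2.00 ± 0.67, adjusted p = 0.0179), but not without Protophlo replicate 1 or replicate 3 (up to 0.138).

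WEE1, whose kinase acts at the DNA replication checkpoint in Arabidopsis, was higher than in NSCs in 4 populations. It was at 14.9, 13.4 and 19.0 FPKM in CSCs, at 10.3, 8.77, 7.96 and 6.21 in Xyl, at 8.01, 14.9 and 12.1 in QC and at 1.63, 3.33, 1.18 and 0.494 in NSCs. No value of these 3 populations fell into the NSC range. On the log2 scale the fold change was 2.75 ± 0.59 in CSCs, 1.90 in Xyl and 2.32 in QC (limma, adjusted p = 0.00077, 0.00657 and 0.00871), all firm, and it also passed in SCN at 1.93 (adjusted p = 0.02), where it was lost without SCN replicate 4 or NSCs replicate 4 (up to 0.0819).

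The 3 CCS52 genes had unlike patterns. CCS52A2, needed in the root for the quiescent center to stay quiet, was at 26.2, 22.6 and 24.2 FPKM in CSCs, at 6.82, 23.5 and 10.9 in QC and at 6.06, 6.26, 8.13 and 2.11 in NSCs. It passed in CSCs (2.03 ± 0.58, limma adjusted p = 0.00696, firm), where all samples were above NSCs. In QC 1 of the 3 samples lay inside the NSC range.

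CCS52A1, which acts where root cells leave the division zone, was at 38.1, 41.5 and 41.4 FPKM in QC, at 29.7, 34.2, 42.5 and 48.0 in Protophlo, at 69.1, 9.74, 26.6 and 43.2 in SCN and at 12.0, 8.40, 9.17 and 11.8 in NSCs. QC and Protophlo overlapped each other and lay wholly above NSCs, yet neither difference passed (1.88 and 1.79 on the log2 scale, limma adjusted p = 0.106 and 0.112). The shared spread also took in SCN (9.74 to 69.1) and Epi/LRC (0.283 to 30.9). CCS52B, the CCS52 gene expressed at mitosis, was at 111, 128, 143 and 137 in Xyl, at 132, 74.3 and 64.3 in CSCs and at 6.54, 9.08, 5.50 and 6.66 in NSCs (4.05 ± 1.06 and 3.47 ± 1.15, adjusted p = 0.00316 and 0.0183). The Xyl call was firm, and the CSCs call was lost without CSCs replicate 1 and with a pseudocount of 0.1 (up to 0.0671). Epi/LRC samples were at 19.7, 116 and 0.105, the widest spread of any population for this gene. CCS52B overlaps 3 annotated genes on the opposite strand, by up to 376 bases.

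Each of the 6 types was also compared with the mean of the other 5, leaving out the SCN, which by its label covers them. The xylem genes TMO5 and T5L1 were at 0.486 and 0.554 FPKM in SCN, below NSCs at 10.5 and 17.6. How far the SCN libraries held each type was not tested. Of the 45 tested members, 34 differed among the types (75.6%, against 53.5% of all genes, limma F test). In Xyl 18 members were higher than in the other types (against 12.2% of all genes) and 3 were lower (against 11.6%). The 18 held all 9 B-type cyclins, at log2 differences from 1.79 for CYCB2;2 to 4.95 for CYCB1;4, as well as CYCD5;1, CDKB2;2 (2.91) and CCS52B (2.89). Of these 18 calls 13 were firm, and 13 were called without Xyl replicate 3 or replicate 4. The 3 lower members were CYCD3;1, CYCD3;3 (-1.42) and CCS52A1 (-1.91), with CYCD3;1 alone firm. Without Xyl replicate 4, 1 was called, and without Epi/LRC replicate 2, 6 were.

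In CSCs 10 members were higher than in the other types (against 13.2%) and 2, KRP2 and SIM, were lower (against 7.41%). Of the 10, CYCD3;3 (2.46, limma adjusted p = 0.00121) and KRP4 were firm, and without CSCs replicate 2 only 3 were called. In Epi/LRC 3 members were higher (against 1.94%), CYCD3;1, CYCD3;3 (2.36, adjusted p = 0.00772) and KRP7, and KRP2 was lower (against 2.26%) at adjusted p = 0.0529, a call lost in 17 of the 28 fits that left out a sample.

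In the Protophlo libraries 31 members were lower than in the other types (68.9%, against 24.3%) and 4 were higher (8.89%, against 13.6%). The 31 held all 9 B-type cyclins (-2.28 to -3.45), CYCD3;3 (-3.54, limma adjusted p = 2.23e-06), CYCD5;1 (-3.01) and WEE1 (-2.57), and the 4 were KRP2, SIM, SMR1 and CCS52A1 (1.77, adjusted p = 0.0174). Of these, 24 lower and 3 higher calls were firm. The median over members was -2.15 beside -0.17 over all genes. These libraries are those with EXPA7 at 237.5 FPKM or more and little CVP2, and with a CASP1 level of 3040 in replicate 4, and the part of differentiated cells in the difference was not tested.

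In CEI and QC 0 members passed in either direction against the other types in limma (against 2.44% higher and 0.538% lower for CEI, and 1.56% and 0.375% for QC). At an unadjusted p under 0.05, 2 were higher and 2 lower in CEI (against 8.14% and 4.24% of all genes), and 7 were higher and 1 lower in QC (against 10.4% and 3.97%).

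The highest mean of a member fell in Xyl for 19 members, in CSCs for 9, in Epi/LRC for 7, in NSCs, Protophlo and QC for 3 each, and in CEI and SCN for 1 each. Of the 45 tested members, 42.2% had it in Xyl, against 15.0% of all genes. For 18 members the highest population led the next by more than the larger of the standard deviations of these populations (40.0%, against 24.4% of all genes). In 9 members (20.0%, against 9.50%) every replicate of the highest population lay above every other sample: CYCB1;1, CYCB1;2, CYCB1;3, CYCB1;4, CYCB2;1, CYCD5;1 and CDKB2;2 in Xyl, and CYCA3;4 and KRP4 in CSCs.

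Other genes of the pathway were counted from a list of 36, of which 34 were tested. In CSCs 15 were higher than in NSCs (44.1%, against 22.6% of all genes) and 3 lower (8.82%, against 18.3%), in Xyl 16 higher (47.1%, against 20.0%) and 5 lower (14.7%, against 23.5%), and in Epi/LRC 7 higher (20.6%, against 12.5%) and 3 lower (8.82%, against 16.6%). The other counts of higher genes were near the share of all genes, at 3 in QC (8.82%, against 9.31%), 2 in SCN (5.88%, against 5.52%) and 2 in CEI (5.88%, against 5.37%), as were the 4 lower in Protophlo (11.8%, against 10.5%). In QC 2 were lower (5.88%, against 9.49%) and in SCN 1 (2.94%, against 8.89%). DPA, a partner of E2F factors, and DEL1, an E2F-like repressor of endoreduplication genes, were higher in all populations but Protophlo. CDC20.1, an activator of the anaphase-promoting complex at mitosis, was higher by 4.30 in Xyl on the log2 scale (limma, adjusted p = 0.0014). The retinoblastoma homolog RBR1, which holds back cycle entry, was higher in CSCs (2.18, adjusted p = 0.000215) and Epi/LRC and lower in Protophlo (-1.42, adjusted p = 0.0132). SMR7, a SIAMESE-related inhibitor induced by DNA damage, was lower in SCN, Protophlo, Epi/LRC, CSCs and Xyl.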

How the data were processed

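RNA was sequenced as 100-base single-end reads from SMART-type libraries, which did not keep the strand. Per the labels, reads were mapped with TopHat2 2.0.13 and quantified with Cufflinks 2.1.1 on TAIR10, whereas the methods of the study name Bowtie, the Tuxedo suite and Rsubread. The values the authors deposited are FPKM, given without read counts for 33201 genes. From the steps between low values the relative depth could be recovered (345 of 378 sample pairs fitted within 0.05 log2) and spanned 4.14-fold, from Xyl replicate 1 to NSCs replicate 1. The absolute depth is unknown, so no counting interval is given.

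Columns were assigned by marker initial and replicate number, and the columns C1 to C3 to CEI because the CVP2 columns are spelled out. No 2 samples held identical values, and Pearson's r between replicates across genes lay between 0.746 and 0.978. No label gives a batch. Names and coordinates came from the RefSeq annotation of TAIR10.1, in which all 46 members have a locus.

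Testing was limited to the 22694 genes that reached 1 FPKM in 3 samples or more. Values were fitted as log2(FPKM + 1), with 1 mean for every population, by limma 3.58.1 (R 4.3.3, empirical Bayes with a trend, not robust, two-sided). The study's PoissonSeq needs counts and was not used. Errors after ± are standard errors of this fit. Steps were tested on simulated data. Figures and levels used Python 3.11.15, numpy 2.4.6, pandas 2.3.3 and matplotlib 3.10.9.

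Members and lists were chosen with earlier results of these data known. Values are given for up to 5 members per class with the smallest F-test p, and for CYCB1;1, CDKA;1 and CCS52A2. KRP1, the promoters shown, the context genes named and other members were added after their values were seen. Alternatives were size factors, every gene above 0 in any sample, a pseudocount of 0.1, TPM, no trend, an adjusted p under 0.05, the replicate number as a block, each population with NSCs alone, the SCN left out, each sample left out in turn and, added later, 3 libraries left out together.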

Additional observations from a re-analysis of the deposited data

Results flagged for a closer look

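In the 124 groups of 4 samples examined (31 members with detailed values in SCN, Protophlo, Xyl and NSCs), the highest or lowest sample stood far from the other 3 in 21 cases by Dixon's criterion. The criterion flags about 1 in 20 groups of independent, normally distributed values. FPKM are skewed, and genes of 1 library vary together, so the 21 cases cannot be read against this rate. Of the 21, 12 were Protophlo replicate 1, which was the highest library of its group for CYCA1;1 (10.3 FPKM), CYCA2;2 (2.74), CYCA2;4 (20.7), CYCB1;1 (42.8), CYCB1;4 (25.0), CYCB2;1 (5.94), CYCB3;1 (8.26), CDKB1;2 (17.4), CDKB2;1 (23.7), CDKB2;2 (9.07), WEE1 (2.48) and CCS52B (29.4). For these genes the other 3 Protophlo libraries lay below it at 3.797 FPKM or less. SCN replicate 2 stood above its group for CYCB1;4 (48.7) and CCS52B (35.1), SCN replicate 3 for CYCD5;1 (42.2) and SCN replicate 4 for SMR1 (24.9). Protophlo replicate 4 was above its group for KRP6 (19.2) and Protophlo replicate 3 for KRP7 (7.67). In Xyl, replicate 2 was above the others for CYCD3;1 (2.66) and replicate 4 for SMR1 (2.57), and in NSCs replicate 2 was below the others for CYCD3;1 (6.30).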

How the results depend on the processing

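Of the 103 member calls against NSCs, 55 were kept in every fit, among them 11 of the 19 lower calls. No call changed its direction. With a pseudocount of 0.1 the higher calls became 1 in SCN and 1 in CEI, the lower calls 1 in SCN and 0 in CEI, and against the other types 6 were higher in CSCs and 0 lower in Epi/LRC. Over all 22694 genes the higher calls moved from 1252 to 959 in SCN and from 1219 to 795 in CEI. The lower calls moved from 2018 to 1546 in SCN and from 1144 to 606 in CEI. Against the other types, 3003 higher genes became 2142 in CSCs and 513 lower genes became 562 in Epi/LRC. The member counts of 6 and 0 were also found with all genes of nonzero value (2701 and 397 of 31526 genes). With size factors 1 was higher in Protophlo, 7 were lower in Xyl, 3 lower in QC and 2 higher in CSCs against the other types. Over all genes these counts moved from 797 to 1262, from 5343 to 6062, from 2154 to 2899 and from 3003 to 1417. Size factors moved the share of higher among all called genes from 55.2% to 38.1% in CSCs, from 49.5% to 29.7% in QC and from 25.1% to 35.8% in Protophlo. Against the other types it moved from 64.1% to 39.6% in CSCs and from 35.8% to 52.7% in Protophlo. With TPM 1 was lower in Epi/LRC, and 0 against the other types, as at an adjusted p under 0.05. Over all 23248 genes tested with TPM, 3603 and 478 were lower. Fitted with NSCs alone, 11 were higher and 2 lower in CEI, 3 higher in Protophlo, 4 lower in Epi/LRC, 7 lower in Xyl, and 18 higher and 3 lower in QC. Calls over all genes were not counted in the fits with NSCs alone, nor at an adjusted p under 0.05. Those member counts are not read as results about the members. Without the SCN 2 were lower in QC, and against the other types 1 in CEI, 2 in Epi/LRC and 5 in Xyl. Over all 22237 genes then tested these were 2314, 145, 644 and 2788, beside 2154, 122, 513 and 2635 in the main fit. With 3 libraries left out together (chosen after seeing the data), 1 was higher in SCN, 16 in CEI and 11 in QC, and 2 were lower in Epi/LRC against the other types. Over all 22491 genes then tested these were 861, 2446, 2400 and 475. The cause of these moves was not tested. The fit without a trend moved no count by over 1.5 times.

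With the replicate number as a block, 0 members were lower in CEI, 1 lower in Epi/LRC and 1 lower in CEI against the other types. Over all genes these were 1027, 3592 and 126, beside 1144, 3778 and 122 in the main fit. The study does not say that equal numbers were processed together. Deviations of the 90 same-numbered pairs correlated at a mean of -0.018 (from -0.40 to 0.33), so the numbers were not taken to pair the samples.

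Leaving out each sample gave, against NSCs, 0 to 7 higher and 1 to 3 lower in SCN, 0 to 11 and 0 to 1 in CEI, 0 to 2 and 3 to 7 in Protophlo, 8 to 16 and 1 to 3 in Epi/LRC, 20 to 27 and 3 to 3 in CSCs, 23 to 26 and 3 to 6 in Xyl, and 3 to 9 and 1 to 2 in QC. Against the other types it gave 0 to 0 and 0 to 1 in CEI, 3 to 4 and 27 to 32 in Protophlo, 2 to 4 and 0 to 2 in Epi/LRC, 3 to 11 and 2 to 3 in CSCs, 13 to 18 and 1 to 6 in Xyl, and 0 to 0 in QC. Between 31 and 36 members varied among the types. Calls over all genes were not counted in these fits. FPKM without counts limits what can be said of members near 0.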
